A study of Mus musculus with 8 samples.

Results

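Oxidative phosphorylation was described through the genes of its 5 enzyme complexes, and the mitochondrially encoded subunits were compared with the nuclear ones in every library. Members were chosen by gene symbol: the Nd, Co, Atp and Cytb genes of the mitochondrial genome, and the nuclear Nduf, Sdh, Uqcr, Cox and Atp5 families. Genes marked as pseudogenes in the symbol itself (8) were left out. Another 4, annotated as processed pseudogenes under other symbols, stayed in (Ndufb4c, Ndufs6b, Ndufa11b and Cox6c2). This gave 102 of the 55487 genes counted, of which 13 are encoded by mitochondrial DNA and 89 by nuclear chromosomes. Complexes were assigned by symbol. This placed 40 nuclear members in complex I, 4 in complex II, 8 in complex III, 19 in complex IV and 18 in complex V. The mitochondrial ones are 7 of complex I, 1 of complex III, 3 of complex IV and 2 of complex V. The filter on low counts passed 96 members, all 13 mitochondrial and 83 nuclear.

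Polyadenylated RNA was sequenced from mouse embryonic fibroblasts (MEFs) during the first 72 h of reprogramming, when the cells make Oct4, Sox2, Klf4 and Myc (OSKM) in the presence of doxycycline. All 8 cultures were C57BL/6, carried 1 copy each of Rosa26-rtTA (the doxycycline-responsive activator, expressed from a ubiquitous locus) and of Tet-O-OSKM, and received doxycycline throughout. MEFs 61.3 and 61.5 each came from 1 embryo, and cultures of each were given vitamin B12 at 2 µM (B12), the same with PF-9366 at 2 µM, which inhibits MAT2A (B12 + MAT2Ai), S-adenosylmethionine at 100 µM (SAM), or NSC636819 at 10 µM, which blocks KDM4A and KDM4B, demethylases of histones (NSC). Each treatment therefore had n = 2 biological replicates, and cultures with doxycycline alone were not analysed here, so B12 served as the reference.

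The respiratory chain passes electrons from NADH (complex I) and succinate (complex II) through ubiquinone, complex III and cytochrome c to oxygen at complex IV, and complexes I, III and IV pump protons that complex V uses to make ATP. Most subunits are encoded in the nucleus and imported, whereas a hydrophobic core is encoded in the mitochondrial genome, which is transcribed from both strands as long precursors that are cut into single mRNAs, mostly at tRNAs. Complex II is entirely nuclear. Pluripotent cells are known to rely more on glycolysis than fibroblasts do, and the respiratory genes are among those remodelled in reprogramming.

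Libraries held 27498180 to 38565685 counted reads. All 10 fibroblast markers were expressed, with a summed level of 71194 to 104921 CPM (counts scaled to library size, with TMM factors) over the 8 libraries. Markers of other cells differed between groups: the 15 macrophage markers summed to 2783 to 5014 CPM in B12, 2167 to 4446 in B12 + MAT2Ai, 560 to 1731 in SAM and 2022 to 3965 in NSC, and the 10 epithelial markers to 26.6 to 62.3, 24.3 to 64.5, 77.1 to 166 and 25.0 to 67.3 CPM. In every treatment MEF 61.5 had the lower macrophage and the higher epithelial sum, and no marker of these lists was at 0 reads over the series. The pluripotency markers summed to 4.33 to 37.0 CPM, the muscle markers to 12.4 to 27.3 and the endothelial markers to 67.5 to 109.7. In bulk RNA, fewer cells of a type and less RNA per cell cannot be told apart, and the part of these markers in the results below was not tested.

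The mitochondrial members were the most abundant of the set. Per length, in RPKM (reads scaled to exon length and library size), their means over the 8 libraries ran from 432 for mt-Nd4l to 3950.0 for mt-Atp6, with a median of 965, whereas the nuclear members ran from 0 to 140 (Cox6a1), with a median of 22.8. No nuclear member reached the level of the lowest mitochondrial one. After mt-Atp6, a subunit of the proton channel of ATP synthase, came mt-Co3 (3479 RPKM), mt-Co1 (2159) and mt-Co2 (1980.0), the 3 core subunits of cytochrome c oxidase, and then mt-Cytb (1168), the cytochrome b of complex III. The complex I subunits followed at 432 to 1006 RPKM.

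Adjacent mitochondrial genes overlap, which bears on how their reads were counted. The end of mt-Atp8 and the start of mt-Atp6, 2 subunits of ATP synthase read in different frames, share 43 bases (chrM:7927-7969 of GRCm38, plus strand), and the end of mt-Nd4l and the start of mt-Nd4, 2 subunits of complex I, share 7 bases (chrM:10167-10173). Shown 5′ to 3′ are the last 60 bases of each first gene and the first 60 of each second gene, from the GENCODE M21 transcripts, with the shared bases in capitals.
mt-Atp8: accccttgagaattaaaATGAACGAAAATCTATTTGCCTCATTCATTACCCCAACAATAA
mt-Atp6: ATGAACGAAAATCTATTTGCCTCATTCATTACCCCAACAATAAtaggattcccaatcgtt
mt-Nd4l: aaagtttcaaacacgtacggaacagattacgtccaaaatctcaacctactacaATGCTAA
mt-Nd4: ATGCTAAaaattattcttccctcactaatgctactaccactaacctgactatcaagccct
mt-Atp6 and mt-Co3 share 1 base, and mt-Nd5 and mt-Nd6 share 14 bases on opposite strands (chrM:13552-13565). Since counting used the strand, a read over those 14 bases matches only one of the pair, whereas a read in a stretch shared on the same strand matches both genes. In the mouse mt-Atp8 and mt-Atp6 sit on 1 mRNA. Counts were lower for mt-Atp8 (a mean of 124 CPM, against 2689.9 CPM for mt-Atp6) and mt-Nd4l (128 CPM, against 1289 CPM for mt-Nd4). CPM is not scaled to length, and these genes are shorter, at 204 against 681 bases and 297 against 1378. Per length the means were 607 against 3950 RPKM and 432 against 936 RPKM. The counts also depend, to an unknown extent, on a rule for shared reads that was not stated.

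The share of reads from the mitochondrial members differed between libraries, whereas that of the nuclear members was nearly level. In MEF 61.3 the mitochondrial members took 1.60% of counts in B12, 1.55% in B12 + MAT2Ai, 1.64% in SAM and 2.31% in NSC. In MEF 61.5 they took 1.55%, 1.42%, 1.21% and 1.67%. The NSC library of MEF 61.3 stands apart from the other 7, which lie between 1.21% and 1.67%. The nuclear members took 0.490%, 0.510%, 0.465% and 0.432% in MEF 61.3, in the same order, and 0.476%, 0.515%, 0.520% and 0.487% in MEF 61.5. The Wilson 95% interval of each share was at most 0.00984 percentage points wide, which covers counting error only. The range from the lowest to the highest library exceeded counting error for both shares. Some pairs of intervals overlapped, such as those of the mitochondrial share in B12 + MAT2Ai of MEF 61.3 and B12 of MEF 61.5. Mitochondrial counts per nuclear count were 3.26, 3.04, 3.54 and 5.34 in MEF 61.3 and 3.25, 2.75, 2.33 and 3.43 in MEF 61.5. This ratio was highest with NSC in both MEFs.

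**Figure D1:**
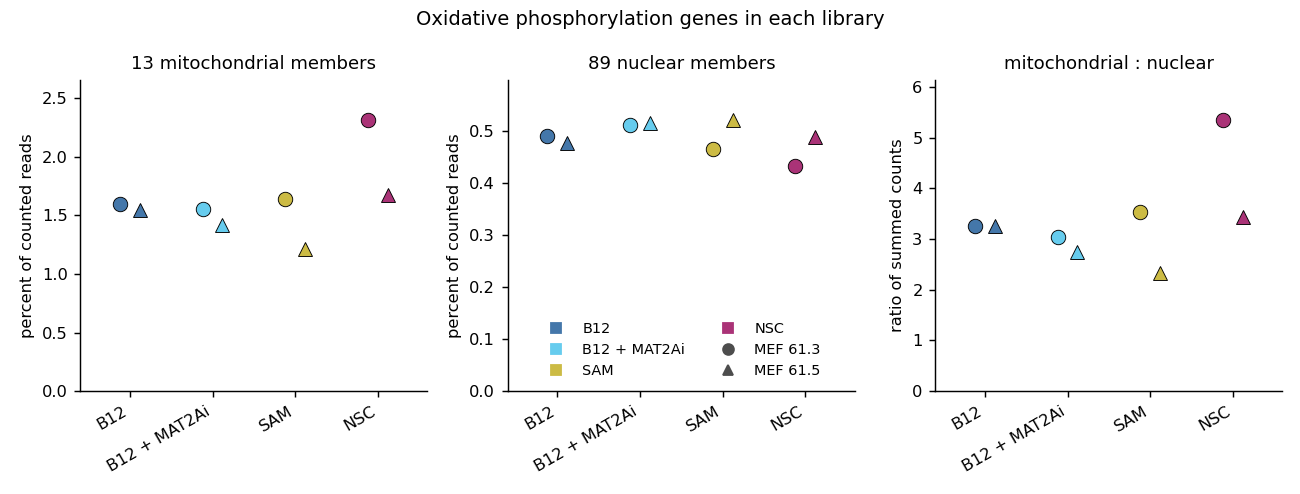
Percent of counted reads from the 13 mitochondrial and the 89 nuclear members, and the ratio of their summed counts, in each library (1 point per library, circles MEF 61.3, triangles MEF 61.5, all axes from 0). The NSC library of MEF 61.3 is highest in the first panel at 2.31% and in the third at 5.34, while the nuclear share stays between 0.432% and 0.520%.

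The same contrast held complex by complex. From the lowest to the highest library, the summed TMM CPM of the mitochondrial members varied 2.07-fold for complex I, 2.47-fold for complex III (mt-Cytb alone), 2.12-fold for complex IV and 1.85-fold for complex V. The summed nuclear members varied 1.12-fold for complexes I and II, 1.13-fold for complex III, 1.11-fold for complex IV and 1.14-fold for complex V. As single genes, the 13 mitochondrial members had a coefficient of variation over the 8 libraries of 10.9% to 33.9% (median 24.0%), against 2.12% to 8.97% (median 5.43%) for the 77 nuclear members at a mean of 10 CPM or more. The median over all 10513 genes at that level was 7.35%. The NSC library of MEF 61.3 carries much of this spread: without it, an alternative chosen after seeing the data, the mitochondrial median was 14.2% (8.78% to 17.8%), that of the nuclear members 4.94% and that of all genes 6.79%, and the coefficient of variation of the summed mitochondrial members went from 22.6% to 12.1%.

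NSC against SAM sets an inhibitor of histone demethylases beside the methyl donor itself. All 13 mitochondrial members were higher in NSC, and none of the 83 nuclear members tested was called in either direction. Over all genes, 5.1% were called higher and 4.42% lower in NSC than in SAM. Calls are edgeR quasi-likelihood tests with treatment and MEF as terms, at an adjusted p (Benjamini-Hochberg over 19392 genes) below 0.05. The 13 log2 fold changes ran from 0.38 to 0.66 with a median of 0.52, and their adjusted p from 0.0026 to 0.0373. Because these mRNAs are cut from long shared precursors, the 13 calls are not independent of one another. The 83 nuclear members had a median of -0.05, with 18 above and 65 below 0, whereas 52.2% of all genes were above 0. The ribosomal lists leaned the same way, with 0 of 81 cytosolic (median -0.19) and 15 of 77 mitochondrial ribosomal proteins (median -0.08) above 0. Of 11 regulators of mitochondrial biogenesis, 8 were above 0, as were 4 of 7 genes of the propionate pathway. Fewer were above 0 in other mitochondrial lists, with 9 of 22 genes of mitochondrial DNA expression and 3 of 14 enzymes of the TCA cycle. In the outer membrane and import list 0 of 13 were above 0, and in coenzyme Q synthesis 3 of 11. Of the 83 nuclear members, 6 (7.23%) had an unadjusted p below 0.05, against 24.9% of all genes, and all 6 were lower in NSC. They were Ndufs6, Uqcrc2, Ndufb8, Ndufv2, Ndufa8 and Atp5g2, at log2 fold changes of -0.24 to -0.15 (named after their values were seen). DESeq2 called 0 nuclear and 7 mitochondrial members.

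Values of the mitochondrial members are TMM CPM, given for MEF 61.3 and then MEF 61.5. mt-Co1, the catalytic subunit of cytochrome c oxidase, was at 5547 and 3250.0 in NSC and at 3801 and 2329.6 in SAM, and its log2 fold change was 0.52 ± 0.13 (SE, with an adjusted p = 0.0344). mt-Cytb was at 2207 and 1369 in NSC and at 1466 and 895 in SAM (0.60 ± 0.14, adjusted p = 0.0187). mt-Nd4, a proton-pumping subunit of complex I, was at 2162 and 1352 in NSC and at 1415 and 882 in SAM (0.61 ± 0.16, adjusted p = 0.0360). In these 3 genes NSC exceeded SAM within each MEF, yet the NSC library of MEF 61.5 lay below the SAM library of MEF 61.3, so the groups overlap.

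mt-Nd6, the only member on the light strand and a complex I subunit, had the largest change: 465 and 263 CPM in NSC, 279.6 and 176 in SAM (0.66 ± 0.15, adjusted p = 0.0186). mt-Co3 had the smallest adjusted p, at 3517 and 2622 in NSC and 2490.1 and 1979 in SAM (0.45 ± 0.07, adjusted p = 0.0026). mt-Nd1, which lies at the junction of the membrane and matrix arms of complex I, was at 1231 and 1017 in NSC and at 918 and 760.3 in SAM (0.42 ± 0.08, adjusted p = 0.0081). In 6 of the 13 (mt-Nd1, mt-Nd2, mt-Nd3, mt-Co2, mt-Co3 and mt-Atp6) both NSC libraries exceeded both SAM libraries, and in the other 7 the groups overlapped. This share was 46.2%, against 20% of all genes tested. Of the 83 nuclear members, 26 (31.3%) were lower in both NSC libraries than in both SAM libraries, against 20.2% of all genes, and 1 was higher.

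The within-MEF differences were close for the sums: the mitochondrial to nuclear ratio was 0.60 log2 units higher in NSC than in SAM in MEF 61.3 and 0.56 higher in MEF 61.5. The calls rest on particular libraries. Without the NSC library of MEF 61.3, 0 of the 13 were called (median log2 fold change 0.36), and without the SAM library of MEF 61.5 only mt-Co3 was (median 0.41), the lone library of a treatment being assumed to vary like the others. Beside this result, 14 of 15 macrophage markers were higher and 6 of 9 epithelial markers tested were lower in NSC than in SAM.

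**Figure D2:**
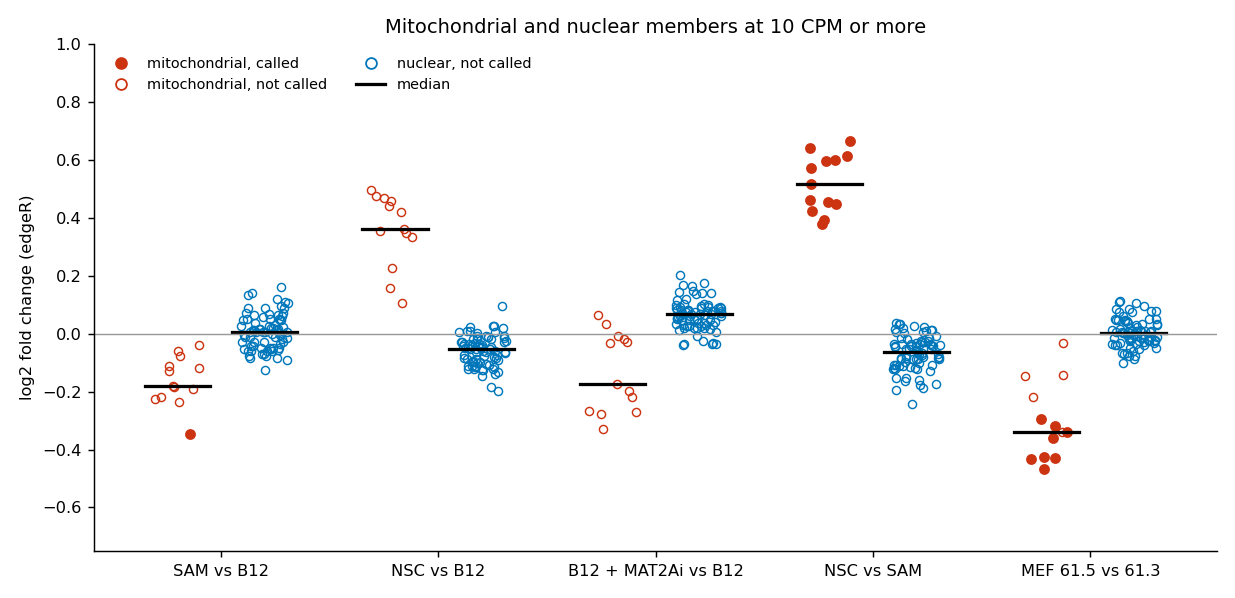
Log2 fold change of each mitochondrial (red, 13 genes) and nuclear (blue, 77 genes at a mean of 10 CPM or more) member in the 5 comparisons, with filled points for called genes and bars for medians. In NSC against SAM all 13 mitochondrial points are filled and lie between 0.38 and 0.66, while the nuclear points centre on -0.06.

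NSC compared with B12, which shares the NSC libraries with the comparison above, gave no calls. All 13 mitochondrial members were positive in both MEFs, with a median log2 fold change of 0.36 (0.11 to 0.50), and 0 were called by edgeR. Yet 12 of the 13 had an unadjusted p below 0.05, against 12.4% of all genes. The 13 are cut from long shared precursors, so they are not independent of one another. Over all genes 0.284% were called higher and 1.62% lower. DESeq2 called 2 of the 13. The smallest adjusted p was 0.0503, for mt-Nd1, with 1231 and 1017 CPM in NSC and 867 and 874 in B12 (0.36 ± 0.08). The MEFs differed in size of change. mt-Nd4 was at 2162 in NSC and 1162 in B12 of MEF 61.3 but at 1352 and 1251 in MEF 61.5, within-MEF log2 differences of 0.90 and 0.11 (adjusted p = 0.1996). mt-Nd5, a large membrane subunit of complex I, differed by 0.88 and 0.04 log2 units, and mt-Cytb by 0.74 and 0.11. In 10 of the 13 (76.9%) both NSC libraries exceeded both B12 libraries, against 15.9% of all genes. mt-Co3 (0.11 ± 0.07) and mt-Nd3 (0.16 ± 0.07) had the smallest changes. The ratio of mitochondrial to nuclear counts was 0.71 log2 units higher in NSC in MEF 61.3 and 0.08 higher in MEF 61.5.

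None of the 83 nuclear members was called between NSC and B12. Of them 71 were negative and 12 positive, with a median of -0.05, whereas 49.5% of all genes were positive. The ribosomal lists leaned the same way, with 4 of 81 cytosolic (median -0.06) and 21 of 77 mitochondrial ribosomal proteins (median -0.05) positive. Of 22 genes of mitochondrial DNA expression, 12 were positive, as were 6 of 11 regulators of mitochondrial biogenesis. In the propionate pathway 4 of 7 were positive, and in coenzyme Q synthesis 5 of 11. Only 2 of 14 enzymes of the TCA cycle and 1 of 13 genes of the outer membrane and import were positive. The 3 nuclear members (3.61%, against 12.4% of all genes) with an unadjusted p below 0.05 were Cox7a2 (-0.20 ± 0.08), Ndufa8 (-0.18 ± 0.08) and Atp5l (-0.15 ± 0.06). They are subunits of complexes IV, I and V (named after their values were seen). The calls for mitochondrial members depended on the libraries in the fit: leaving out the B12 library of MEF 61.5 gave 11 called higher, and leaving out either SAM library or the NSC library of MEF 61.5 gave 1. The summed macrophage markers were lower in NSC than in B12 in both MEFs, with 5 of 15 called lower, and no epithelial marker was called.

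SAM compared with B12 gave 1 called member, mt-Co3, which was lower in SAM. Its levels were 2490.1 and 1979 CPM in SAM and 3046 and 2615 in B12 for MEFs 61.3 and 61.5, so that its log2 fold change was -0.35 ± 0.07 (adjusted p = 0.0111), and both SAM libraries lay below both B12 libraries. Over all genes, 2.78% were called higher and 4.93% lower, so 1 of 13 called lower is little above the share of all genes. All 13 fitted changes were negative, from -0.35 to -0.04 with a median of -0.18, but 10 of the 13 went in opposite directions in the MEFs. mt-Nd4 was at 1415 in SAM and 1162 in B12 of MEF 61.3, and at 882 and 1251 in MEF 61.5. Besides mt-Co3, only mt-Nd3 (304 and 295 CPM in SAM, 352 and 345 in B12) and mt-Atp6 (2595 and 1973 against 2796 and 2531) had lower values in both MEFs, and neither was called (adjusted p = 0.0990 and 0.116).

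Among the nuclear members, 0 of 83 were called by edgeR or by DESeq2 between SAM and B12, 46 were positive and 37 negative, with a median of 0.01. Against 19.7% of all genes, 3.61% of these members had an unadjusted p below 0.05, namely Ndufa4l2, Cox7a1 and Ndufv2 (named after their values were seen). The call of mt-Co3 was lost without the B12 library or without the SAM library of MEF 61.5 (-0.30 and -0.32, adjusted p = 0.0563 and 0.088), while its log2 fold change stayed between -0.40 and -0.30 under all 16 alternatives, and without the B12 library of MEF 61.3 the number of mitochondrial members called lower rose to 7. All 15 macrophage markers were lower and 6 of 9 epithelial markers were higher in SAM.

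Adding the MAT2A inhibitor to B12, which blocks the enzyme that makes SAM from methionine, left all members below the threshold. No member was called by edgeR or DESeq2, where 0.0722% of all genes were called higher and 0.0155% lower. Of the 13 mitochondrial members 11 were negative, with a median log2 fold change of -0.17, and none had an unadjusted p below 0.05, against 8.12% of all genes. mt-Nd5 had the lowest value (-0.33 ± 0.16, adjusted p = 0.644), at 755 and 659 CPM with the inhibitor and 867 and 886 without. mt-Cytb was at 1175 and 985 against 1318 and 1272, and mt-Co1 at 2979 and 2516 against 3284 and 2979. The nuclear members leaned the other way, with 73 of 83 positive and a median of 0.07, against a median of 0.00 over all genes. The same lean was seen in other lists, with 80 of 81 cytosolic ribosomal proteins positive (median 0.08) and 60 of 77 mitochondrial ribosomal proteins (median 0.08). Of the 83 nuclear members, 3 had an unadjusted p below 0.05: Atp5k (0.20 ± 0.07), Ndufa7 (0.18 ± 0.07) and Uqcrq (0.17 ± 0.07). They are small subunits of complexes V, I and III (named after their values were seen). When only the 4 libraries compared entered the fit, 6 mitochondrial members were called lower, and without the B12 library of MEF 61.3 the number was 4. All 15 macrophage markers (median -0.25) and 9 of 10 fibroblast markers (median -0.07) were negative with the inhibitor, and none of them was called.

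The mitochondrial members also differed between the embryos. Between MEF 61.5 and MEF 61.3, with the 4 treatments as terms, 8 of 13 mitochondrial members were lower in MEF 61.5 (mt-Nd4l, mt-Nd5, mt-Nd6, mt-Cytb, mt-Co1, mt-Co2, mt-Co3 and mt-Atp6), with a median over the 13 of -0.34. Over all genes 8.41% were called higher and 10.3% lower. mt-Co1 changed most (-0.47 ± 0.09, adjusted p = 0.0055), and mt-Co3 had the smallest adjusted p (-0.30 ± 0.05, adjusted p = 0.0018). The size of the difference varied among treatments and members. For mt-Co3 it was -0.22 log2 units in B12, -0.21 in B12 + MAT2Ai, -0.33 in SAM and -0.42 in NSC, so it was present in each. For mt-Co1 it was -0.14, -0.24, -0.71 and -0.77 in the same order, and for mt-Nd5 it was 0.03, -0.20, -0.74 and -0.81. The ratio of mitochondrial to nuclear counts was nearly equal in B12 (a difference of -0.00277 log2 units) and lower in MEF 61.5 by 0.14 in B12 + MAT2Ai, 0.60 in SAM and 0.64 in NSC. Whether the embryos' difference depended on treatment was not tested, since there was 1 library per MEF and treatment. For no mitochondrial member did the 4 libraries of one MEF separate from the 4 of the other, whereas 6.24% of all genes were higher in every library of MEF 61.5 and 5.33% lower.

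The only nuclear member called was Cox6b2, the testis isoform of a complex IV subunit, which was higher in MEF 61.5. Its levels in B12, B12 + MAT2Ai, SAM and NSC were 6.41, 6.66, 5.98 and 6.56 CPM in MEF 61.5 and 3.67, 5.22, 4.96 and 4.83 in MEF 61.3, so the MEFs did not overlap (0.46 ± 0.10, adjusted p = 0.0071). Without the SAM library of either MEF the mitochondrial members called fell from 8 to 4, without either NSC library they fell to 5, and without either B12 library they rose to 12. DESeq2 called 3 of them and Cox6b2. All 15 macrophage markers were lower and 7 of 9 epithelial markers higher in MEF 61.5.

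**Figure D3:**
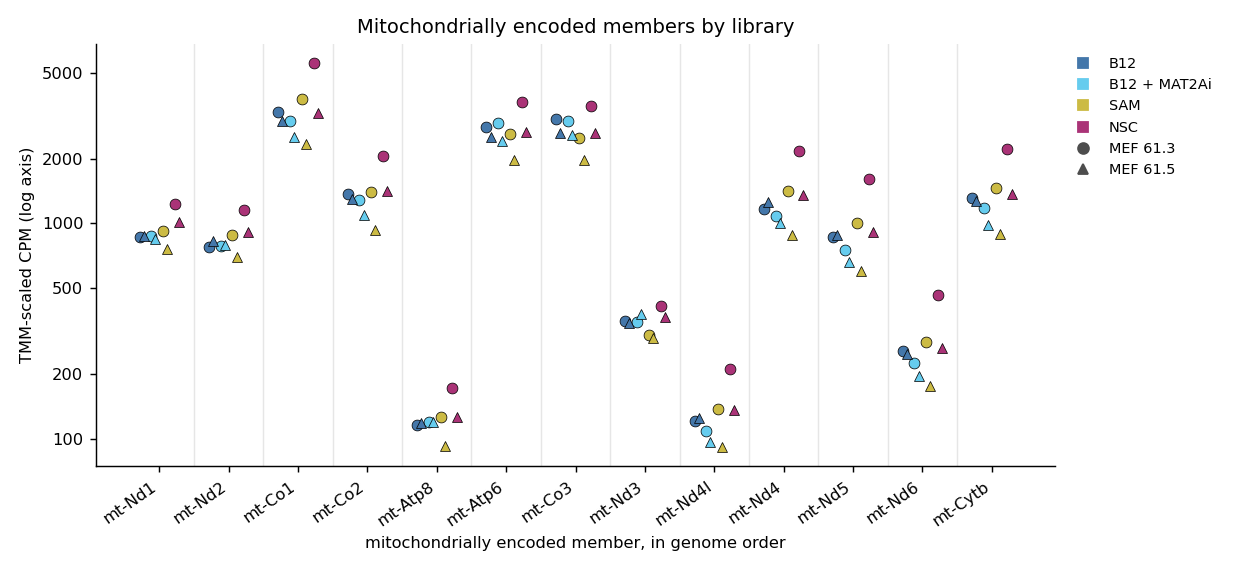
TMM CPM (log axis) of the 13 mitochondrial members in genome order, 1 point per library (colours treatments, circles MEF 61.3, triangles MEF 61.5). The NSC library of MEF 61.3 is highest for every gene, and the SAM library of MEF 61.5 is lowest for every gene, for example 5547 and 2329.6 CPM for mt-Co1.

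In some comparisons the size of the difference varied with the position of the genes on the mitochondrial chromosome. In genome order the members are mt-Nd1, mt-Nd2, mt-Co1, mt-Co2, mt-Atp8, mt-Atp6, mt-Co3, mt-Nd3, mt-Nd4l, mt-Nd4, mt-Nd5, mt-Nd6 and mt-Cytb, and all but mt-Nd6 are read from the same strand. In NSC against SAM the 5 genes from mt-Nd4l on had log2 fold changes of 0.60 to 0.66, and the 8 before it 0.38 to 0.57. In B12 + MAT2Ai against B12 the values were -0.33 to -0.22 and -0.20 to 0.06. In the other 3 comparisons the ranges overlapped, at 0.42 to 0.50 and 0.11 to 0.44 in NSC against B12, at -0.19 to -0.12 and -0.35 to -0.04 in SAM against B12, and at -0.43 to -0.34 and -0.47 to -0.03 between the MEFs, where mt-Co1, one of the 8, had the largest change. The coefficient of variation over the 8 libraries was 29.3% to 33.9% for the 5 genes, and 10.9% to 30.1% for the 8. mt-Co1, with 30.1%, was the most variable of the 8. This grouping was chosen after the values were seen and was given no test.

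The make-up of the mitochondrial mRNA pool differed as well. In MEF 61.3, mt-Co1 took 20.1% of the counts of the 13 members in B12, 19.1% in B12 + MAT2Ai, 22.6% in SAM and 22.7% in NSC. mt-Co3 took 18.6%, 19.0%, 14.8% and 14.4%, and mt-Nd3, which follows mt-Co3 in the genome and encodes a small subunit of complex I, took 2.15%, 2.23%, 1.81% and 1.69%. For these genes SAM and NSC were close in this MEF. They were further apart for mt-Nd5, at 5.97% in SAM and 6.56% in NSC, and for mt-Nd6, at 1.66% and 1.91%. In MEF 61.5, mt-Co1 took 19.4%, 18.4%, 19.9% and 19.8%, mt-Co3 17.01%, 18.8%, 16.9% and 16.0%, and mt-Nd3 2.25%, 2.77%, 2.52% and 2.23%, so that SAM and NSC lay closer to B12 there. These shares are within 1 library, so they do not depend on the scaling between libraries.

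**Figure D4:**
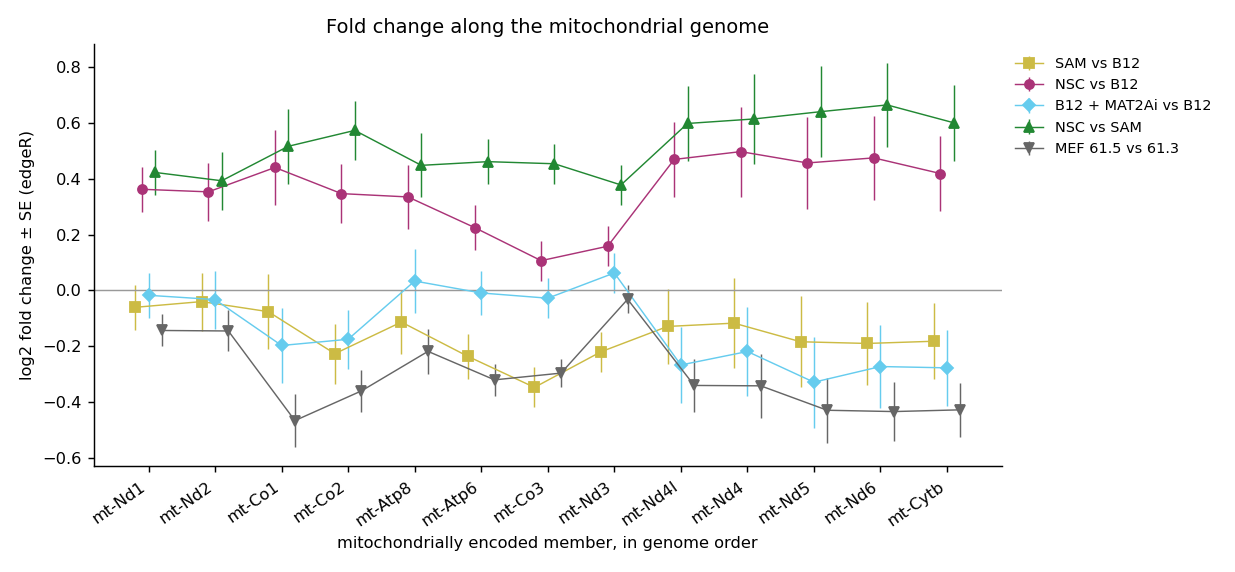
Log2 fold change ± SE (edgeR) of the 13 mitochondrial members in genome order for the 5 comparisons. The green line (NSC against SAM) runs from 0.38 at mt-Nd3 to 0.60 at mt-Nd4l and 0.66 at mt-Nd6.

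Other products of the mitochondrial genome were measured at low levels in these poly(A)-selected libraries, and the cause was not tested. The 2 rRNAs and 22 tRNAs summed to 121 to 207 CPM, and 6 of the 24 passed the filter. Of these 6, 3 were higher in NSC than in SAM: mt-Rnr2 and the tRNA genes mt-Tc (0.81 ± 0.19, adjusted p = 0.0243) and mt-Tp (1.10 ± 0.30, adjusted p = 0.0431). mt-Rnr2, the large-subunit rRNA, was higher in NSC than in SAM (0.62 ± 0.07, adjusted p = 3.95e-04) and than in B12 (0.37 ± 0.07, adjusted p = 0.0214). mt-Rnr1, the small-subunit rRNA, lies next to it and was lower in MEF 61.5 (-0.58 ± 0.07). In B12 + MAT2Ai against B12 all 6 were positive (median 0.34), none was called, and 11 of the 13 mitochondrial mRNAs were negative.

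The nuclear members were expressed as a broad, level set. In the 77 at 10 CPM or more, the 95% interval of the log2 fold change lay within ±0.5 in each of the 5 comparisons, so a change of that size in any of them is outside these intervals. The most abundant in CPM were Atp5b, the catalytic beta subunit of ATP synthase, at 499 to 572 CPM over the 8 libraries, Atp5a1, the alpha subunit, at 409 to 454, and Sdha, the flavoprotein of complex II, at 164 to 181. Per length, the highest of complex II was Sdhd, a membrane anchor of succinate dehydrogenase (54.6 to 65.5 RPKM), that of complex III Uqcr11 (52.6 to 55.8), that of complex IV Cox6a1 (131 to 147) and that of complex V Atp5a1 (130.4 to 144.7). In complex I it was Ndufb4c (51.7 to 63.9 RPKM), which is annotated as a processed pseudogene. Ndufb4c and Ndufb4, like Cox6c2 and Cox6c, may share reads, so their split is uncertain. Ndufs6b and Ndufa11b, 2 other processed pseudogenes with similar symbols, had 324 and 91 reads over all libraries.

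Of the nuclear members, 66 of 88 symbols had a promoter window in RefSeq (GRCm38.p6), from 250 bases before the start to 50 after it. The letters of the NRF1 motif, GCGCNTGCGC on either strand, were in at least 1 window of 17 of the 66 genes (25.8%), against 5.19% of all 27025 genes with windows of that length. NRF1 is a transcription factor known to bind promoters of respiratory genes. AAGATGGC, a core of the YY1 motif, was in 9 (13.6% against 3.19%), ACTTCCGG, bound by ETS factors such as GABPA, in 5 (7.58% against 4.31%) and TATAAA in 7 (10.6% against 15.7%). No motif searched contains another, matches were counted on both strands, and a match is a description of the letters only. The 27025 genes include genes that did not pass the filter here, and the share among expressed genes was not computed. For the complexes in which a match lay fully before the start, the member with the highest RPKM is shown, 250 bases 5′ to 3′ on the gene's strand, with the matches in capitals. The windows are chr2:36049339-36049588 (Ndufa8), chr9:50603850-50604099 (Sdhd), chr5:115348959-115349208 (Cox6a1) and chr2:10080433-10080682 (Atp5c1), all on the minus strand.
Ndufa8: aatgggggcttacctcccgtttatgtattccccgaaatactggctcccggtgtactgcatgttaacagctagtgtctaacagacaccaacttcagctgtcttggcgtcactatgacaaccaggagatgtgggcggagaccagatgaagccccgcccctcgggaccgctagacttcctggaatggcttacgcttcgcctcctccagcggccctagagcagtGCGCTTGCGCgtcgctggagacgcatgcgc
Sdhd: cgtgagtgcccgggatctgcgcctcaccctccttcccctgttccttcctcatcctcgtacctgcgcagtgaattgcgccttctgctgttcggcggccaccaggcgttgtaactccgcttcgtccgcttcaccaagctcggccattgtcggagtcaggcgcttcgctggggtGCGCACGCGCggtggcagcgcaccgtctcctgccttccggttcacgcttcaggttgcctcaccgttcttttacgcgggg
Cox6a1: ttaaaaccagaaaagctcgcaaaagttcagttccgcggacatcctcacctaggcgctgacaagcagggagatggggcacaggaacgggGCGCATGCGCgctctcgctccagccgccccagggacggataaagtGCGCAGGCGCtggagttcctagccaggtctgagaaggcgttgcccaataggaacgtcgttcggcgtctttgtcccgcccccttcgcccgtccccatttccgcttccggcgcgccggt
Atp5c1: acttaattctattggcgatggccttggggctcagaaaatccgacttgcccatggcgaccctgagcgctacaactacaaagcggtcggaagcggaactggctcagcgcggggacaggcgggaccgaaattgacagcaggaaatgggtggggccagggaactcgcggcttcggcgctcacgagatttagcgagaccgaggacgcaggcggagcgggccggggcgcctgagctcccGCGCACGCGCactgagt
Cox6a1, the most abundant nuclear member per length, has 2 matches, and the other 3 have 1 each. Nrf1 itself was at a mean of 21.5 CPM and was called in none of the 5 comparisons.

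Several subunits have paralogs known from particular tissues. In each group of complex IV paralogs the widely expressed gene was far above the tissue-restricted one. Cox4i1 was at 80.3 to 93.7 RPKM and Cox4i2, known from lung and from the response to low oxygen, was at 0.14 on average, from 32 reads in all. Cox6a1 was at 131 to 147 RPKM, and the heart and muscle gene Cox6a2 had 14 reads in all. Cox7a2 (35.2 to 45.8 RPKM) and Cox7a2l, a factor in supercomplex assembly (56.3 to 63.8), exceeded the muscle gene Cox7a1 (0.56 on average, 83 reads). Cox7b was at 45.3 to 52.0 RPKM, whereas Cox7b2 had 2 reads in all, and Cox8a was at 117 to 135, whereas Cox8b had 1. Cox8c had 0 of 279680238 reads, which allows a level of up to 0.0107 CPM over the series, and a second gene identifier for Atp5o also had 0. Cox6b1 (84.5 to 95.9 RPKM) exceeded Cox6b2 17.8-fold, the smallest of these gaps.

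Ndufa4, placed in complex I by its symbol although it is found in complex IV, was at 51.7 to 64.1 RPKM. Its paralog Ndufa4l2, a gene induced by low oxygen, was at 0.29 to 0.86. Ndufa4l2 was lower in SAM than in B12 in both MEFs, at 0.47 and 0.39 CPM against 0.63 and 0.95, and was not called (adjusted p = 0.194). The 3 genes for the c subunit of ATP synthase, which encode the same mature protein, were expressed together, Atp5g3 at 45.9 to 57.9 RPKM, Atp5g2 at 42.4 to 55.1 and Atp5g1 at 11.3 to 13.2. None of the 3 was called in any comparison.

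**Figure D5:**
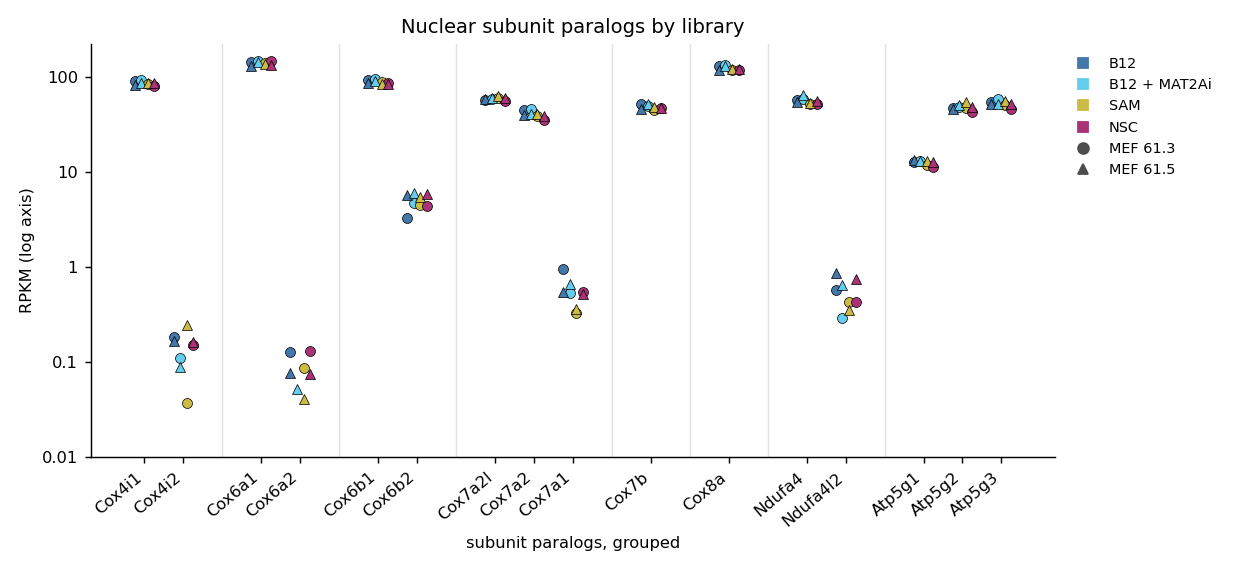
RPKM (log axis) of nuclear subunit paralogs in each library, grouped by subunit (colours treatments, circles MEF 61.3, triangles MEF 61.5). Points at 0 are not drawn, and Cox7b2, Cox8b and Cox8c, with 2, 1 and 0 reads, are left out. Cox4i1, Cox6a1, Cox7b and Cox8a lie above 45 RPKM in every library.

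Among the assembly factors of complexes I to V (15, 4, 6, 17 and 3 genes tested) and 22 genes of mitochondrial DNA expression, those called in NSC against SAM were Uqcc2, an assembly factor of complex III (-0.34 ± 0.08, adjusted p = 0.0186), and Pnpt1, a mitochondrial exoribonuclease (-0.36 ± 0.10, adjusted p = 0.0470). Pnpt1 was also lower in NSC than in B12 (-0.47 ± 0.10, adjusted p = 0.0394). Tfam and Polrmt, which drive mitochondrial transcription, were at 25.5 and 24.8 CPM and were called in no comparison. In SAM against B12 the complex I assembly factor Nubpl (0.62 ± 0.13, adjusted p = 0.0137) and the complex V factor Atpaf1 (0.38 ± 0.08, adjusted p = 0.0113) were higher, and the mitochondrial carrier Ucp2, abundant in macrophages, was lower (-0.45 ± 0.06, adjusted p = 8.75e-04). Of 77 mitochondrial ribosomal proteins tested, 0 were called in NSC against SAM, with a median log2 fold change of -0.08. Of the 14 enzymes of the TCA cycle, 0 were called in any comparison. Cycs, the electron carrier between complexes III and IV, was at a mean of 63.9 CPM and had a log2 fold change of -0.22 ± 0.07 in NSC against SAM (adjusted p = 0.0917).

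Of 11 genes of coenzyme Q synthesis, 13 of the outer membrane and import machinery and 7 of the B12-dependent propionate pathway, 0 were called in any comparison. Between the MEFs, single genes were called in several lists, lower in MEF 61.5 for Tmem126b (complex I assembly), Cox17 (copper delivery to complex IV, -0.49 ± 0.07), Pnpt1, Ucp2 and Ppargc1b (a coactivator of mitochondrial biogenesis, -0.84 ± 0.16), and higher for Etfa, Twnk (the mitochondrial DNA helicase) and Mrpl17. Mrps6 was lower in SAM than in B12 (-0.36 ± 0.08). Of 81 cytosolic ribosomal proteins tested, 9 were lower in NSC than in SAM, against 4.42% of all genes, and 30 were higher and 1 lower in MEF 61.5, against 8.41% and 10.3%.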

How the data were processed

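RNA was extracted from bulk cultures, and stranded poly(A)-selected libraries were sequenced. The authors aligned reads to the mouse genome (GRCm38) with STAR (version 2.5.2b in the submitters' processing notes), counted them per gene with featureCounts and summed technical replicates. The deposited values are raw counts per gene, and how reads over overlapping genes or several sites were handled is not given in the sources used here. Of 55487 gene identifiers, 55227 were matched to GENCODE M21 symbols and 260 were not.

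Counts of all 8 libraries (27498180 to 38565685 reads) were fitted with edgeR 4.0.16 in R 4.3.3 (limma 3.58.1), with treatment and MEF as terms, TMM scaling and filterByExpr at a minimum count of 10. This left 19392 genes, 3 residual degrees of freedom, a prior of 7.92 and a biological coefficient of variation of 0.0590. The quasi-likelihood test was adjusted by Benjamini-Hochberg over all genes, and genes below 0.05 were called. MEF was a term because libraries of a number come from the same embryo, and their deviations correlated at 0.424 to 0.559. For any pair of the 8 libraries, the mean squared difference was at least 6.62 times the variance from counting. The script was tested on simulated data. CPM and RPKM (merged exon length) used TMM scaling, and log2 fold changes are given ± SE. Python 3.11.15 with scipy 1.17.1 and matplotlib 3.10.9 gave intervals and plots.

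Members and lists were chosen with earlier results of these data known. Genes named were all mitochondrial members, called nuclear members at 1 CPM or more with the same sign in each MEF or treatment, the isoform groups, and the nuclear member of each complex with the highest RPKM. Others are marked as chosen after their values were seen or come from the gene lists. Atp5b and Sdha were chosen after their values were seen. Alternatives were DESeq2 1.42.0, its size factors, other filters, scaling without mitochondrial reads, robust empirical Bayes, no MEF term, only the libraries compared, and each library left out.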

Additional observations from a re-analysis of the deposited data

Results flagged for a closer look

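In 4 of 34 sets of 4 libraries of one MEF, a single library stood apart from the other 3 by Dixon's test. The test's rate of about 1 in 20 sets (1.7 here) holds for independent sets of replicates. In each set the 4 libraries had different treatments, so the test does not separate a stray library from a treatment difference. The sets also share their libraries, so no conclusion is drawn from the number marked. In MEF 61.3 the NSC library stood above the others in the mitochondrial share of counts (2.31%), in mt-Nd1 (1231 CPM) and in mt-Co2 (2048 CPM). In MEF 61.5 the SAM library stood below the others in mt-Co3 (1979 CPM).

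Several results went in opposite directions in the MEFs, and since each MEF had 1 library per treatment the difference was not tested. The values are the log2 change in MEF 61.3 minus that in MEF 61.5. In SAM against B12, the mitochondrial share differed by 0.39, the nuclear share by -0.20 and their ratio by 0.60. Among members this gap was 0.28 for mt-Nd1, 0.43 for mt-Nd2, 0.79 for mt-Nd4, 0.64 for mt-Nd4l, 0.77 for mt-Nd5, 0.63 for mt-Nd6, 0.66 for mt-Cytb, 0.57 for mt-Co1, 0.50 for mt-Co2, 0.48 for mt-Atp8 and 0.53 for Cox6b2, all higher with SAM in MEF 61.3 and lower in MEF 61.5. In NSC against B12 the nuclear share differed by -0.21. In B12 + MAT2Ai against B12 the gap was 0.049 for mt-Nd1, 0.064 for mt-Nd2, -0.14 for mt-Nd3 and 0.13 for mt-Atp6, and in NSC against SAM it was -0.17 for Cox6b2.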

How the results depend on the processing

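No alternative turned the direction of mt-Co3 in SAM against B12, of the mitochondrial members in the NSC comparisons, or of the members called between the MEFs. By arithmetic, leaving out 1 library could not move the mitochondrial to nuclear ratio beyond the spread of its differences within MEFs or treatments. Those settings therefore say nothing about its stability. In SAM against B12 they gave -0.48 to 0.12, which spans both signs. Under the other alternatives the ratio moved by no more than that spread. The counts of members called were less stable than the directions above. In SAM against B12 (1 called), 6 were called with no filter, 0 with only the 4 libraries compared, and 0 to 7 with 1 library left out. In NSC against B12 (0), 1 was called with DESeq2 size factors or robust empirical Bayes, 2 by DESeq2, 11 with no filter, and 0 to 11 with 1 library left out. In B12 + MAT2Ai against B12 (0), 6 were called with no filter or with only the 4 libraries, and 0 to 4 with 1 library left out. In NSC against SAM (13), DESeq2 called 7, robust empirical Bayes 5, the 4 libraries alone 17 (4 of them nuclear), and 0 to 14 were called with 1 library left out. Between the MEFs (9), DESeq2 and robust empirical Bayes called 4, no filter 13, and 5 to 14 were called with 1 library left out. With no replicate block (MEF left out of the pairing), 0 members were called in each treatment comparison, as were 0 genes in all for SAM against B12 and 1 for NSC against SAM. Except where a setting leaves out libraries, the cause was not tested. With 2 embryos per treatment, the calls rest on few libraries, and genes under 1 CPM were measured from few reads.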
